A study of Mus musculus with 7 samples.

Results

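The genes that megakaryocytes and platelets are known for, Itga2b, Pf4, Ppbp, Gp1ba, Gp9, Gp6, Vwf, Treml1, Clec1b and Tubb1, were followed through the bulk ATAC-seq profile of HPC7, 10 of the 21938 protein-coding genes of the GENCODE M21 annotation of mm10. Every peak that touched the gene body or the 20 kb on either side was taken from all 7 peak lists, and peaks that overlapped by at least 1 bp in different libraries were merged into 1 open chromatin region (OCR). This gave 103 OCRs in the 10 windows, of 144931 in the genome.

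HPC7 cells, an established line of mouse blood progenitors, were grown in medium with stem cell factor and serum, and in ATAC-seq the Tn5 transposase cuts and tags DNA where chromatin is accessible. The 7 libraries, HPC7-1, HPC7-2 and HPC7-4 to HPC7-8, came from separate culture batches of this single line under the 1 condition that the labels give, so no group was compared with another. Open chromatin was measured, not transcription, and no library of megakaryocytes was among these data. The comparisons below are therefore between genes, and between places within a gene, each repeated in 7 libraries.

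Megakaryocytes are the large bone marrow cells that shed platelets into the blood, and they arise from multipotent progenitors on a path that is shared in part with red cells. Many of their genes are known to be most active late on this path, under transcription factors of the GATA, ETS, RUNX and NF-E2 families, and encode the receptors with which platelets stick to injured vessels, the proteins of their storage granules and their special tubulin. Some of them, Itga2b (integrin alpha-IIb, CD41), Vwf and Pf4 among them, are also known from blood stem and progenitor cells.

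In these progenitor cells, the chromatin at most of these genes was open. A promoter OCR, here a peak within 3 kb of any annotated start of the gene, was found in all 7 libraries for 9 of the 10 members, beside 60.8% of all protein-coding genes. Only Gp6, the collagen receptor, had none in 6 of the libraries. Counting a peak in at least 1 library, the members came to 10 of 10, beside 68% of all protein-coding genes. For 3 of the 9, however, the OCR that this distance credits to the gene lay away from its start. Within 1 kb of a start, 6 of 10 members had a peak in all libraries (55.9% of all genes), and over a start itself again 6 of 10 (52% of all genes), which were Itga2b, Pf4, Gp1ba, Gp9, Vwf and Treml1. Of all 13341 protein-coding genes with a promoter OCR in all libraries, 8.01% had none within 1 kb in all of them.

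The sequences at the summits, where most reads piled up, are given for the OCRs on which the values below turn. Each is read 5′ to 3′ on the strand of the gene from mm10, without bases of annotated UTRs. Capitals mark matches, in either orientation, to the letters of 4 factor families. The GATA family was searched as AGATAA, in a further form as TGATAA, then in another form as AGATAG, and in a last form as TGATAG. The ETS family was searched as CGGAAG, and in a further form as AGGAAG. The RUNX family was searched as TGTGGT, and in a further form as TGCGGT. NF-E2 and AP-1 were searched together as TGANTCA, where N is any base. None of these words holds another whole. The first set is of OCRs at or near the principal start of the gene. For Pf4, whose summit lay inside the 5′ UTR, and for Ppbp the 120 bases before the start are shown.
Itga2b, minus strand, summit at -347, chr11:102470170-102470290: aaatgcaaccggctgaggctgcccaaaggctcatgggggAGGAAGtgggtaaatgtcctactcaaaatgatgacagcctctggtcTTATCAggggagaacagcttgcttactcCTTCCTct
Gp1ba, plus strand, summit at -100, chr11:70638962-70639082: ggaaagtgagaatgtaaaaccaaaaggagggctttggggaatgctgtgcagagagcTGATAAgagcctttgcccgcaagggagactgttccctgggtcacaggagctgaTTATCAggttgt
Gp9, plus strand, summit at -68, chr6:87777944-87778064: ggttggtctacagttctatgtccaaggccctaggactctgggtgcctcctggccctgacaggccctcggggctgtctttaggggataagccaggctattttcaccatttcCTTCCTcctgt
Vwf, plus strand, summit at -43, chr6:125552845-125552947: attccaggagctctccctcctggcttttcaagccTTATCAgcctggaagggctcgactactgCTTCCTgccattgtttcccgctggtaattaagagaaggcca
Pf4, plus strand, -120 to -1, chr5:90772315-90772434: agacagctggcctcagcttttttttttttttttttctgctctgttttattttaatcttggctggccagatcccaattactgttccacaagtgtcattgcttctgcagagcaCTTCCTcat
Ppbp, plus strand, -120 to -1, chr5:90768398-90768517: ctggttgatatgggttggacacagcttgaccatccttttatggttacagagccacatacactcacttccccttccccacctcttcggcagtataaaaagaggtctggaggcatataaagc

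The second set holds OCRs with summits away from the principal start, in introns, in an internal exon or upstream. They are the strongest promoter OCRs of Gp9, Treml1, Tubb1 and Clec1b and the strongest distal OCR of the set, in the window of Treml1. The promoter OCR of Treml1 also covered the start.
Gp9, plus strand, summit at -1966, chr6:87776046-87776166: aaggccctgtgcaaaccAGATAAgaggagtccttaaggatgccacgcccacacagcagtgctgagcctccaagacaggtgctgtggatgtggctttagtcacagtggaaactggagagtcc
Treml1, plus strand, summit at +669 in an intron, chr17:48360525-48360645: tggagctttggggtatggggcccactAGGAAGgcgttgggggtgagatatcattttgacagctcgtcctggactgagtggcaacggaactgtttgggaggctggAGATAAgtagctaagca
Treml1, plus strand, summit at -17793, chr17:48342063-48342183: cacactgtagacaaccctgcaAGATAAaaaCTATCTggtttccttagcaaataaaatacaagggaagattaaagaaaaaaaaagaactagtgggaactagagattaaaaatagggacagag
Tubb1, plus strand, summit at +3152 in an intron, chr2:174453787-174453907: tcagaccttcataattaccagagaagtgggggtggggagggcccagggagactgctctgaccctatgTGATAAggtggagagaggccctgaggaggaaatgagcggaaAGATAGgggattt
Clec1b, plus strand, summit at +8925, chr6:129406162-129406282: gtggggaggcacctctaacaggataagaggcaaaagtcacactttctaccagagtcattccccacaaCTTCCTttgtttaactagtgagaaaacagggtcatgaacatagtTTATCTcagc

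Intensity was the fold enrichment in the peak list, the reads at the summit plus 1, divided by the background of the library plus 1. The libraries differed in depth, with 84593 to 132852 peaks and backgrounds of 4.44 reads in HPC7-2 to 20.4 reads in HPC7-1. Fold enrichments of different libraries are for this reason not on 1 scale, and each was turned into a percentile of all peaks of its own library. A percentile of 90 means that 90% of the peaks of that library were weaker. It thus also depends on how many weak peaks the list of that library holds. The label of the line was looked at through 32 marker genes of 8 cell types. Beside the 60.8% of all protein-coding genes, promoter OCRs in all libraries were found for 6 of 6 progenitor markers (Kit, Cd34, Gata2, Spi1, Lmo2 and Meis1), 4 of 5 erythroid, 2 of 5 neutrophil, 3 of 5 mast cell, 1 of 3 B cell, 1 of 3 T cell, 3 of 3 stroma and 0 of 2 liver markers. The progenitor and stroma markers were thus alike in count but not in level. Mean percentiles were 89.4 to 96.0 for the progenitor markers, all 6 in the top 25% of peaks of every library, and 65.2 in Col3a1, 71.6 in Col1a1 and 97.0 in Pdgfrb for stroma, 1 of 3 in that top.

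**Figure D1:**
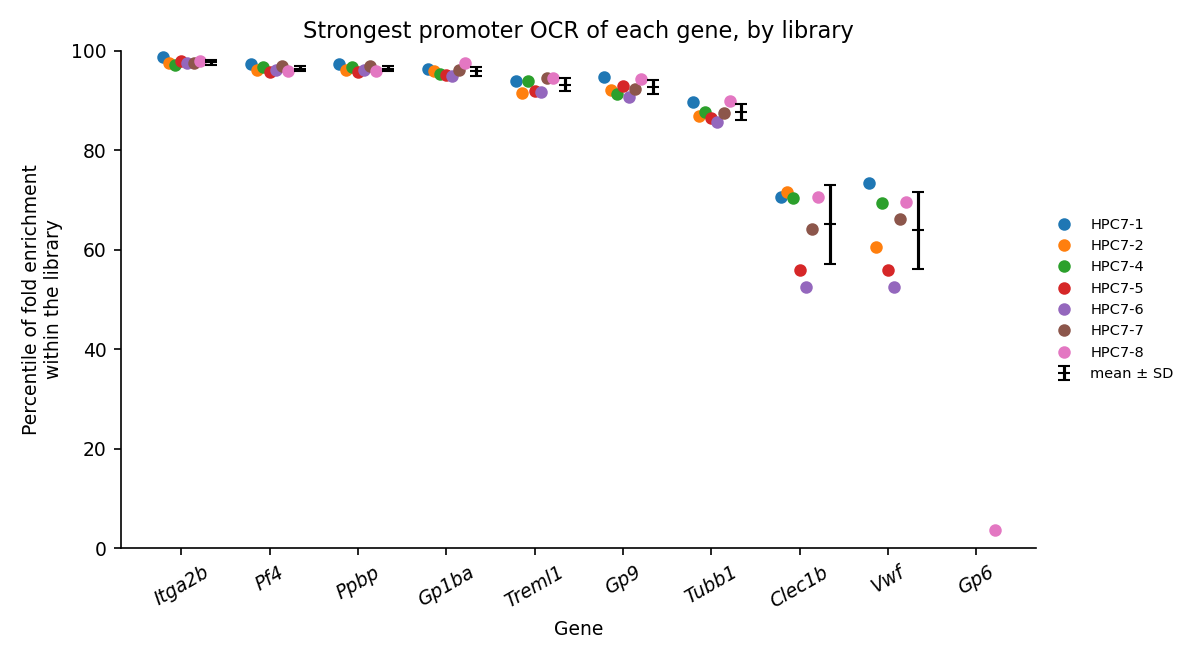
Strongest promoter OCR (within 3 kb of a start) of each gene. The vertical axis is the percentile of its fold enrichment among all peaks of the library, coloured points are the 7 libraries and black bars are mean ± SD. The leading 7 genes lie above 85 in every library, Clec1b and Vwf spread between 52.5 and 73.3, and Gp6 has a single point at 3.74. Pf4 and Ppbp share 1 OCR.

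Among the adhesion receptors, Itga2b had the strongest promoter OCR of the 10 members. The percentile was 97.1 in HPC7-4, the lowest, 97.5 at the median and 98.7 in HPC7-1, the highest, with a mean of 97.7 ± 0.515 (SD, n = 7). The 7 libraries thus lay within 2 percentile points of each other, at fold enrichments of 100.3 to 178.0 and 640 to 3530 reads at the summit. The summits fell within 57 bp of each other, at a median position of -347 bp from the principal start, and the peaks were 1455 to 2195 bp wide. The mean percentile was above that of 81.1% of all protein-coding promoters open in all libraries.

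Gp1ba and Gp9 encode subunits of the GPIb-IX-V complex, with which platelets hold on to von Willebrand factor. The promoter OCR of Gp1ba reached the percentile 94.9 in HPC7-6, 95.9 at the median and 97.5 in HPC7-8 (mean 95.9 ± 0.886, SD, n = 7). Its summit lay between -110 and -60 bp from the start in every library, and 473 to 2420 reads stood behind it. In the stretch printed above, a match to the GATA letters as printed covers the median summit, and another on the opposite strand follows downstream. Gp9 differed in having a pair of OCRs. The stronger was centred at -1966 bp from its only annotated start, with percentiles of 90.8 in HPC7-6, 92.4 at the median and 94.6 in HPC7-1 (mean 92.7 ± 1.43, SD, n = 7). The other covered the start itself, with its summit at -68 bp, and ran from 83.9 to 91.4 (mean 88.1 ± 2.53, SD, n = 7). Both were called in all 7 libraries as separate peaks, and the upstream one was the stronger in each library. Both also came within 3 kb of a start of Gm43904, so that the same distance assigned them to that gene too.

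Gp6, which binds collagen, had the fewest OCRs of the set. Its window of 73.8 kb held a single OCR, called in HPC7-8 alone, at -46 bp from the start. This peak had 19 reads at the summit, a fold enrichment of 2.91 and a percentile of 3.74, near the floor of that list. In the other 6 libraries, HPC7-1 with its 20.4 background reads among them, no peak was listed anywhere in the window, which says only that none passed the authors' threshold.

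Clec1b encodes CLEC-2, the platelet receptor for podoplanin. No library had a peak within 1 kb of any of its 4 annotated starts. The OCR that the 3-kb distance assigned to it lay in an exon of a noncoding transcript of the gene, with its summit 8925 bp after the principal start and 2658 to 2763 bp after an internal one. It also came within 3 kb of a start of the neighbouring gene Clec9a, so that the same distance assigned it to both genes. Its percentiles were 52.5 in HPC7-6, 70.5 at the median and 71.6 in HPC7-2 (mean 65.1 ± 7.92, SD, n = 7). HPC7-5, at 55.9, was the other low library, while HPC7-1, HPC7-2, HPC7-4 and HPC7-8 lay together between 70.5 and 71.6. The printed stretch holds a match to the ETS letters and another to the GATA letters, both on the opposite strand.

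Treml1 encodes TLT-1, a receptor kept in the membrane of alpha granules. Its promoter OCR was broad, 2274 to 3035 bp in the 7 libraries, and covered the start, but the summit lay downstream, in an intron, at +658 to +715. The percentile was 91.5 in HPC7-2, 93.9 at the median and 94.5 in HPC7-7 (mean 93.2 ± 1.33, SD, n = 7). It stood above 50.4% of all protein-coding promoters open in all libraries, but above only 36.9% of those on its own chromosome, 17. For the other 8 members with such a promoter the 2 shares differed by at most 9.28 points.

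Among the granule proteins, Pf4 and Ppbp, which encode the platelet chemokines CXCL4 and CXCL7 and are neighbours on chromosome 5, shared 1 OCR. It covered the start of Pf4, with its summit 39 to 68 bp into that gene, and reached percentiles of 95.7 in HPC7-5, 96.2 at the median and 97.3 in HPC7-1 (mean 96.4 ± 0.574, SD, n = 7). In 6 libraries the peak was much narrower than in HPC7-1, where it ran over 5741 bp, and the median width was 2262 bp. The same summit was 3956 to 3985 bp after the start of Ppbp, past the end of that gene. At the start of Ppbp itself a peak was called in 3 libraries only, with percentiles of 8.15 in HPC7-1, 8.87 in HPC7-7 and 25.4 in HPC7-8 and 20 to 49 reads. By the 3-kb distance Ppbp would rank with Pf4, while at its own start it was, like Tubb1 and Gp6, weak and found in part of the libraries.

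Vwf encodes von Willebrand factor, the adhesive protein that platelets and endothelial cells store. It had a weak but repeated OCR over its principal start, with summits between -46 and +5 bp from it. The percentile was 52.5 in HPC7-6, 66.1 at the median and 73.3 in HPC7-1 (mean 63.9 ± 7.76, SD, n = 7). Only 9.03% of all protein-coding promoters open in all libraries had a lower mean. A further 3 OCRs in all libraries lay beside internal starts, 47388 to 51664 bp into the gene, at mean percentiles of 42.6 to 52.3.

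Tubb1 encodes the beta-tubulin of the microtubule ring of platelets. Its OCR in all libraries was in an intron, 3142 to 3172 bp after the only annotated start, with percentiles of 85.6 in HPC7-6, 87.4 at the median and 90.0 in HPC7-8 (mean 87.6 ± 1.63, SD, n = 7). The peaks were compact, 599 to 796 bp wide. Within 1 kb of the start a peak was called in 4 libraries, with percentiles of 11.4 to 26, and in 2 of them it covered the start. The intronic stretch printed above carries 2 matches to the GATA letters.

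**Figure D2:**
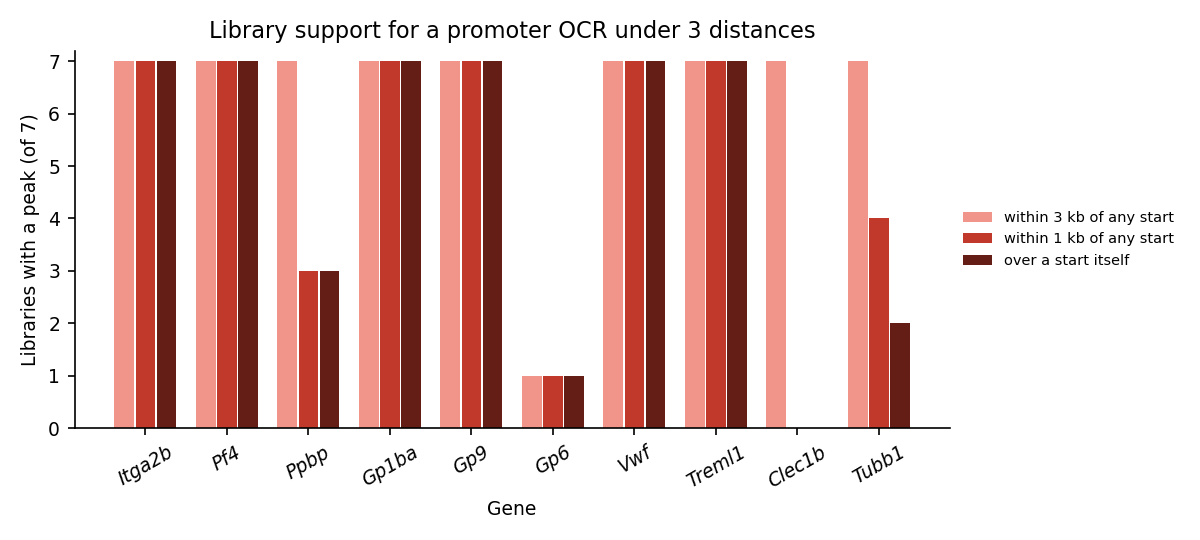
Number of libraries, of 7, in which each gene had a peak within 3 kb of any annotated start, within 1 kb of any start, or over a start itself. Ppbp (3 libraries within 1 kb), Tubb1 (4) and Clec1b (0) lose support as the distance shrinks, and the other genes do not.

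Ranked by mean percentile, the order was Itga2b, Pf4 with Ppbp, Gp1ba, Treml1, Gp9, Tubb1, Clec1b and Vwf. Neighbours in this order were compared within each library by an exact sign-flip permutation test (two-sided, smallest p = 0.0156), adjusted by Benjamini-Hochberg over 8 pairs, of which Pf4 and Ppbp as 1 OCR have no difference. Itga2b exceeded Pf4 by 1.30 ± 0.702 points, higher in 7 of 7 libraries (exact test, adjusted p = 0.0312). Gp1ba exceeded Treml1 by 2.74 ± 0.965, Gp9 exceeded Tubb1 by 5.01 ± 0.907, and Tubb1 exceeded Clec1b by 22.5 ± 6.83, each in 7 of 7 libraries at the same adjusted p in the exact test. The other pairs of neighbours did not differ beyond their spread. The OCR of Pf4 and Ppbp was above Gp1ba by 0.521 ± 1.01 points, in 6 of 7 libraries (exact test, adjusted p = 0.35). Without HPC7-8, the exception, this gap was 0.875 (exact test, adjusted p = 0.05), the same adjusted p as that of the 4 pairs above in those 6 libraries. Treml1 was above Gp9 by 0.505 ± 1.42, in 4 of 7 (exact test, adjusted p = 0.542), with a gap of 0.163 without HPC7-4, 0.241 without HPC7-7 and 0.760 without HPC7-5. With promoters taken within 1 kb, which leaves out the upstream OCR of Gp9 in every library but HPC7-1, the gap was 4.52 and passed the test (exact test, adjusted p = 0.0312). Clec1b was above Vwf by 1.21 ± 4.55 in the mean, in 3 of 7 libraries (exact test, adjusted p = 0.857). Both genes had the same percentile in HPC7-5 (55.9) and in HPC7-6 (52.5), and Vwf was higher in HPC7-1 and HPC7-7. The sign of the mean difference rested on HPC7-2, and without that library the difference was -0.418 and the order of the pair was turned. Without HPC7-1 it was 1.86. With any 1 library left out, the 4 pairs that differed kept their sign in all 6 others and each had the smallest p that 6 libraries allow. Adjustment then gave 0.0625, or 0.05 without HPC7-8 (exact test), which says nothing about how stable the gaps are. Their means stayed at 1.14 to 1.47 for Itga2b over Pf4, 2.47 to 2.94 for Gp1ba over Treml1, 4.75 to 5.24 for Gp9 over Tubb1 and 20.8 to 23.7 for Tubb1 over Clec1b.

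The 9 members with a promoter OCR in all libraries had a median of 93.2, beside 93.1 for the 13341 protein-coding genes with one, whose quartiles were 86.5 and 96.9. In the top 25% of peaks of every library were 7 of 10 members, beside 50.3% of all genes. This count holds the OCR shared by Pf4 and Ppbp for both genes and the intronic OCR of Tubb1. At their own starts Ppbp and Tubb1 were weak, and the members with such a peak over a start in every library were Itga2b, Pf4, Gp1ba, Gp9 and Treml1. The share of all genes with such a peak over a start was not computed, and the 50.3% holds for the 3-kb distance only.

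**Figure D3:**
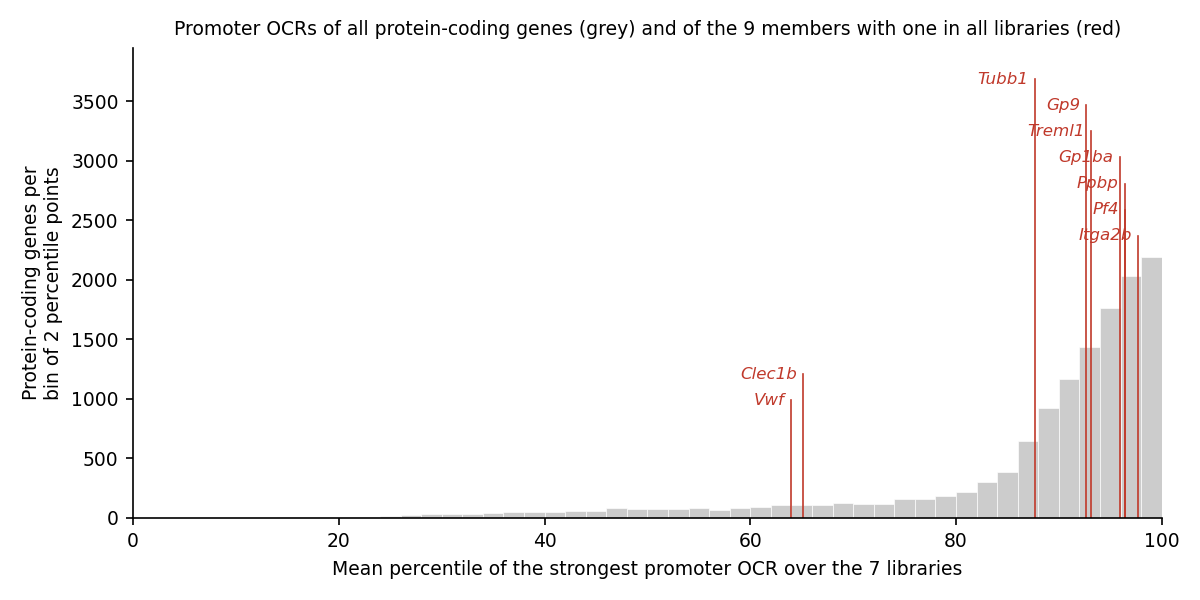
Histogram (grey) of the mean percentile of the strongest promoter OCR for the 13341 protein-coding genes that had one in all 7 libraries, in bins of 2 points. Red lines mark the 9 members, and their heights only separate the names. Itga2b at 97.7 lies near the top, and Clec1b at 65.1 and Vwf at 63.9 lie in the thin lower tail.

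The base composition of these promoters played no part in choosing the genes. From 250 bp before to 50 bp after the principal start, all 10 members had few CpG dinucleotides, from 1 in Gp6 and 2 in Tubb1 to 6 in Itga2b and Clec1b. The median was 3, beside 12 for all protein-coding genes and 19 for those with a promoter OCR in all libraries. The GC content differed less, with 36.3% in Clec1b, the lowest, 58.7% in Gp9, the highest, and medians of 53.8% for the members and 55.7% for all genes. Set against the bases present, the observed over expected CpG ratio was 0.621 in Clec1b, above the median of 0.549 for all genes, and 0.0565 in Gp6 to 0.266 in Itga2b in the other members. The median of the members was 0.168, beside 0.732 for genes with a promoter OCR in all libraries. Genes with at most 6 CpG in this stretch numbered 8131, and 29.7% of them had a promoter OCR in all libraries, beside the 9 of 10 members. That limit was set at the highest member after the composition was seen. For Ppbp, Tubb1 and Clec1b the OCR counted here lay outside the stretch in which CpG were counted. Over a start, 6 of 10 members had an OCR in all libraries, and the share of genes with few CpG was not computed for that definition. Among the 2412 open genes with so few CpG, whose median percentile was 84.7, Itga2b stood above 91.7%, Pf4 above 86.7%, Gp1ba above 84.6%, Treml1 above 74.5% and Gp9 above 72.6%, and Tubb1 above 56.9%, Clec1b above 25% and Vwf above 24%.

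Away from promoters, the windows held 46 distal OCRs, more than 3 kb from any annotated start, beside 28 at promoters of members and 29 at promoters of other genes. Of the 103 OCRs, 53 were found in all 7 libraries, beside 46.2% of the 144931 OCRs of the genome. In 1 library only were 16, beside 17.9%, and 11 of these 16 were in HPC7-1, the deepest. These counts are close to the shares of the genome. The OCRs in all libraries had a median percentile of 65.9, and those in fewer had 14.1. Of the distal OCRs, 20 were in all libraries. The OCRs of the genome were not divided into promoter and distal, so no genome share stands beside these counts by class. The genes differed widely in how densely their windows were filled. Treml1 had 38.1 OCRs per 100 kb, Itga2b 33.4, Tubb1 27.5, Gp9 26.4, Gp1ba 23.3, Pf4 17.1, Ppbp 16.8, Clec1b 15.4, Vwf 8.89 and Gp6 1.36. The median of all protein-coding genes was 10.5, with quartiles of 2.54 and 19.1, so that the windows of 8 members were above the median and those of Vwf and Gp6 below it. The windows of Pf4 and Ppbp hold the same 7 OCRs.

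**Figure D4:**
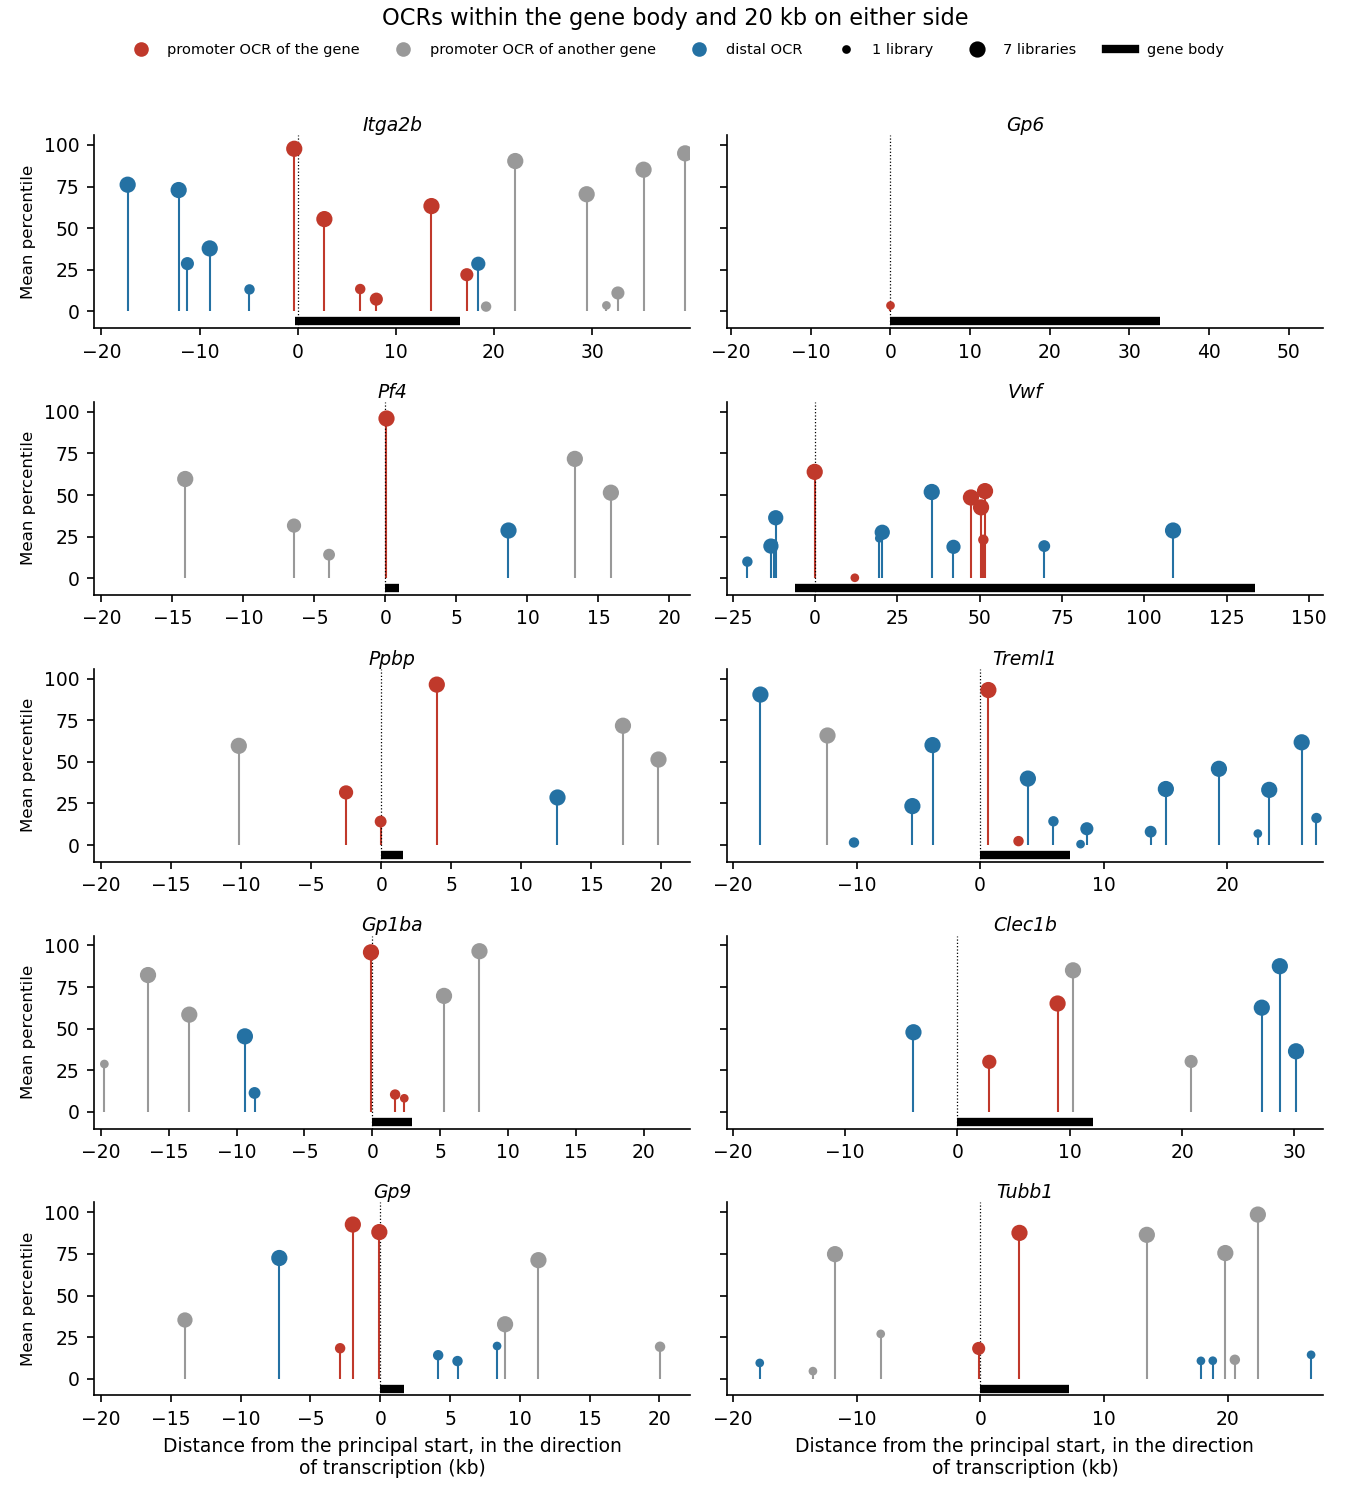
OCRs of each window, by the distance of the summit from the principal start in kb (horizontal, transcription to the right) and by mean percentile over the libraries that had the peak (vertical). Red are promoter OCRs of the gene, grey those of other genes and blue distal OCRs, the size of a point grows with the number of libraries, and the black bar is the gene body. Treml1 has 15 distal OCRs, and Gp6 has 1 point near its start.

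The strongest distal OCR of the set was in the window of Treml1, at -17793 bp from its start, with percentiles of 88.8 in HPC7-6, 91.1 at the median and 92.1 in HPC7-1 (mean 90.4 ± 1.45, SD, n = 7). Its summits fell within 15 bp of each other. The printed sequence holds 2 matches to the GATA letters, 1 in each orientation, a few bases apart. A promoter OCR of the neighbouring gene Trem2, at -12408 (65.9 ± 8.69), lay between this distal OCR and Treml1. Which gene the distal OCR serves was not tested. Treml1 also had more distal OCRs in all libraries than any other member, 8, among them one at +26044 (61.7 ± 11.5) and one at -3854 (60.1 ± 10.5), the latter with 2 matches to the NF-E2 and AP-1 letters in its summit window. The second strongest distal OCR was in the window of Clec1b, 28707 bp after its start and within the neighbouring gene Clec1a. It reached 84.9 in HPC7-6, 87.8 at the median and 90.7 in HPC7-8 (mean 87.5 ± 2.10, SD, n = 7), followed in that window by OCRs at +27102 (62.6 ± 7.06) and -3903 (47.8 ± 11.4).

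Itga2b had 3 distal OCRs in all libraries, all upstream and inside the neighbouring gene Gpatch8, at -17326 (76.1 ± 4.35), -12128 (72.9 ± 6.35) and -8963 (37.8 ± 18.4). The strongest of Gp9 was at -7234 (72.5 ± 4.94), that of Gp1ba at -9392 (45.4 ± 11.8) and that of Pf4 and Ppbp 8623 bp after the start of Pf4 (28.8 ± 11.6). Vwf had one in a coding exon, at +35484 (51.8 ± 11.2), and another at +108747 (28.7 ± 13.9). In the window of Tubb1 none of the 4 distal OCRs was found in more than 1 library, and the best of them, at +26734 in HPC7-2, had a percentile of 14.3.

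A promoter and a distal OCR were compared within each library for the members that had both in all 7, taking the strongest distal peak anew in each library. A distal peak in all libraries was present for 8 of 10 members, beside 63.2% of all protein-coding genes. The exact sign-flip permutation test (two-sided) was run for all 10708 genes with both, with Benjamini-Hochberg adjustment over these genes. For the 8 members every library fell on the same side, which gives the smallest p of 0.0156 and an adjusted p of 0.0171. The promoter was the stronger for 7 of 8 members, beside 77.8% of all genes tested, and the distal OCR for 1 of 8, Clec1b, whose promoter OCR is the one assigned to Clec9a as well, beside 16%. Pf4 and Ppbp enter with the same pair of OCRs, and the promoter OCR of the pair lies at the start of Pf4. At the start of Ppbp itself the 3 libraries with a peak had 8.15 (HPC7-1), 8.87 (HPC7-7) and 25.4 (HPC7-8). The distal peak was higher in each of them, at 44.3, 38.2 and 35.0. The counts of 7 of 8 and 1 of 8 are close to those of all genes.

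The gaps are given without a test between members. The gap was 67.7 ± 11.1 points for the OCR of Pf4 and Ppbp, 50.5 ± 11.3 for Gp1ba, 21.6 ± 4 for Itga2b, 20.1 ± 3.81 for Gp9, 10.3 ± 6.71 for Vwf and 2.72 ± 0.477 for Treml1 (SD, n = 7). For Vwf in HPC7-6 the strongest distal peak was the one at +47407, which merges with peaks of other libraries that come within 3 kb of an internal start. At Clec1b the promoter OCR was lower by 22.4 ± 6.43 points, from 52.5 to 71.6 against 84.9 to 90.7, and the 2 ranges did not overlap. The gaps of most members moved with the window or the promoter distance. The OCR within Clec1a lies over 10 kb from Clec1b, and with 10 kb on either side the promoter of Clec1b was the stronger by 17.3 points (exact test, adjusted p = 0.017). In the same window the gap was 59.9 for Itga2b and 32.7 for Treml1. With 50 kb on either side it was 7.68 for Gp1ba and 5.20 for Gp9. With promoters taken within 1 kb it was 11.3 for Pf4 and 13.7 for Gp1ba, and with only the starts that the APPRIS annotation ranks as principal 12.6 for Itga2b. These 7 gaps passed the exact test at adjusted p of 0.017 to 0.0173. With 50 kb on either side the gap of Pf4 and Ppbp was 0.554 (exact test, adjusted p = 0.147) and that of Vwf -1.89 (exact test, adjusted p = 0.211).

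**Figure D5:**
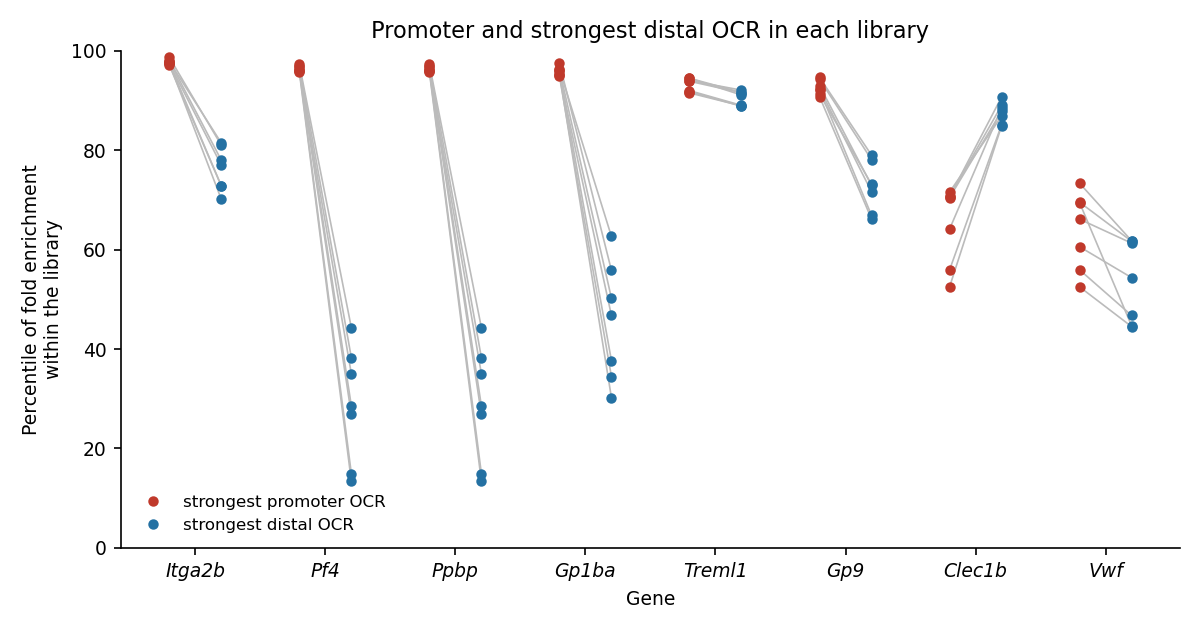
Percentile of the strongest promoter OCR (red) and of the strongest distal OCR (blue) in each of 7 libraries, joined by a grey line per library, for the 8 genes with both in all libraries. Lines fall steeply for Pf4, Ppbp and Gp1ba, slightly for Treml1, and rise only for Clec1b. Pf4 and Ppbp share both OCRs, and the promoter one lies at the start of Pf4.

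The letters of 4 factor families were searched on both strands of the 201 bases around each summit. GATA letters were present in 8 of the 14 promoter OCRs of members found in all libraries (57.1%) and in 8 of their 20 distal OCRs (40%), beside 32.7% of the 66979 OCRs of the genome found in all libraries. ETS letters were in 9 of the 14 promoter OCRs (64.3%) and 7 of the 20 distal ones (35%), beside 46.1%. Both together were in 6 of 14 promoter OCRs (42.9%) and 4 of 20 distal ones (20%), beside 15.4%, and the 6 were the strongest promoter OCRs of Itga2b, Pf4 with Ppbp, Gp1ba, Vwf, Treml1 and Clec1b. Those of Gp9 and Tubb1 had GATA letters without ETS letters. RUNX letters were in 3 of 14 and 3 of 20, beside 29.7%. NF-E2 and AP-1 letters were in 0 of 14 promoter OCRs and 5 of 20 distal ones (25%), beside 11.2%. These are matches to letters in small sets, given as a description, and binding was not measured. The genome shares hold promoter and distal OCRs together, and shares for each class were not computed.

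Further lists place the members among related genes. Of 30 other megakaryocyte and platelet genes, 24 had a promoter OCR in all libraries, at a median percentile of 89.5. The strongest were Nbeal2, needed for alpha granules, at 98.8 ± 0.190, F2rl3, a thrombin receptor, at 98.7 ± 0.309, and Ptgs1, the cyclooxygenase of platelets, at 98.7 ± 0.454 (SD, n = 7). No library had a promoter peak for Thbs1, Mmrn1, Alox12 or F13a1. Of the 12 transcription factors known to act in megakaryocytes, 12 had one in all libraries, at a median of 94.4 and led by Nfe2 at 99.7 ± 0.0512, Zfpm1 at 99.3 ± 0.286 and Runx1 at 98.7 ± 0.275. Set beside the 60.8% of all protein-coding genes, 24 of 30 and 12 of 12 are counts over lists chosen by hand and carry no test.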

How the data were processed

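Bulk ATAC-seq of HPC7 was measured in 7 libraries from separate culture batches. The authors removed adapters (Cutadapt), mapped the reads to mm10 (BWA-mem) and ran MACS2 on each library. Versions and options are not given in the sources used here. The deposited lists hold per peak the fold enrichment (a ratio), -log10 p and -log10 q values, and a score, of which the score was not used. Fold enrichments were whole multiples (tolerance 0.01 of a step) of 1 step in 100% of peaks, which gives whole reads at the summit. Precision is the SD over libraries.

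Genes were those of GENCODE M21. Percentiles were midranks of the fold enrichment within a library. The members and gene lists were chosen with earlier results of these data known. All members were named, with up to 3 distal OCRs each in all libraries at the highest mean percentile, or the 1 with most libraries, and from the other lists the 3 strongest promoters and up to 5 without an OCR. Chromosome lengths were compared with the genome, and 9 of 10 members matched the RefSeq promoters of GRCm38.p6, all equal to the genome. Other settings were peaks with -log10 q from 5 upward, equal lists of 84593 peaks, promoters within 1 kb, APPRIS principal starts, 50% overlap, windows of 10 and 50 kb, each library left out, and libraries by peak name prefix. A peak over the start itself was an alternative chosen after seeing the data. Interval functions and tests were tested on simulated data. The software was bedtools 2.31.1, samtools 1.23.1, pysam 0.24.0 and, under Python 3.11.15, matplotlib 3.10.9, scipy 1.17.1, pandas 2.3.3 and numpy 2.4.6.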

Additional observations from a re-analysis of the deposited data

How the results depend on the processing

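Of 455 values recomputed under an alternative, 30 lost significance, 1 gained it, 2 reversed and 30 moved by more than the spread or 1.5 times a count. Of the 30 lost, 28 are the 4 neighbour pairs that differed, with each library left out in turn. There each p was the smallest that 6 libraries allow and adjustment took it to 0.05 to 0.0625 (exact test), so that these losses say nothing about stability. A promoter OCR in all libraries was kept by 6 members within 1 kb or over a start, 7 with 50% overlap, 8 with APPRIS principal starts, and 9 in each of the lists with a -log10 q of at least 5, with equal peaks or with a library left out. The single peak of Gp6 was lost in the first and second of these lists, which left 9 members with a promoter OCR in any library. The share of all protein-coding genes with a promoter OCR in all libraries was 55.9% within 1 kb and 52% over a start. For the other alternatives this share was not computed, so the counts of members stand alone there. The width of the window and equal lists moved the counts of OCRs, by their construction. With 10 kb there were 68 OCRs, 29 of them distal and 11 distal in all libraries, and with 50 kb there were 194, 93 and 45. With equal lists the distal OCRs were 29 and those in all libraries 13, and the promoter percentiles of all 9 members with one in all libraries moved, to 55.9 for Vwf, 57.1 for Clec1b, 84.8 for Tubb1, 91.0 for Gp9, 91.6 for Treml1, 95.0 for Gp1ba, 95.6 for Pf4 and Ppbp and 97.2 for Itga2b. With equal lists the SD over libraries fell to 4.38 for Vwf, 6.85 for Clec1b, 0.703 for Tubb1 and 0.882 for Gp9. It also fell to 0.998 for Treml1 and 0.768 for Gp1ba, and rose to 0.802 for Pf4 and Ppbp and 0.529 for Itga2b. The promoter percentile of Gp9 was 88.6 within 1 kb and 88.1 over a start. Members with the promoter below the distal OCR fell from 1 to 0 within 1 kb, with APPRIS principal starts (both leave Clec1b without a promoter OCR in all libraries) and with 10 kb (Clec1b at 17.3 points, reversed), and Vwf reversed to -1.89 with 50 kb. Neighbour pairs that differed were 4 as reported, 2 with 50% overlap and 0 to 0 with a library left out, for the reason given. The gap between Treml1 and Gp9 was 4.52 points within 1 kb (exact test, adjusted p = 0.0312). The tests pair values within a library, and with 1 group there are no replicates to pair across groups. The depth at which a peak is listed differs between libraries, whose backgrounds were 4.44 to 20.4 reads.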

Other observations

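Over the 8 distinct promoter OCRs of members found in all libraries, HPC7-6, the library with the fewest peaks, gave the lowest percentile for 5, and HPC7-1, with the most peaks, gave the highest for 4. None of the 15 measures of the members with a value in all 7 libraries had a library that stood apart by Dixon's criterion.

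Peaks carry names with the prefix VD in 3 libraries (HPC7-1, HPC7-2, HPC7-4), whereas the remaining 4 have EtOH. The labels give no meaning for this and the prefixes were not used as groups of the study. Within each set of names the promoter OCR of Clec1b had percentiles of 70.5 to 71.6 (3 libraries) and 52.5 to 70.6 (4 libraries), that of Vwf 60.6 to 73.3 and 52.5 to 69.5, and that of Itga2b 97.1 to 98.7 and 97.4 to 98. The distal OCR of Clec1b exceeded its promoter within both sets. The other 7 members with both kinds had the stronger promoter within both, Ppbp through the OCR at the start of Pf4.

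Some of the strongest OCRs in the windows belonged to neighbours. In the window of Tubb1 the promoter OCR of Prelid3b had a mean percentile of 98.6 ± 0.362 (SD, n = 7), in that of Gp1ba an OCR over starts of Pfn1, Slc25a11, Rnf167 and Eno3 had 96.6 ± 0.705, and in that of Itga2b an OCR at Grn had 95.0 ± 0.847. An OCR beside a start of Clec9a, inside the annotated body of Clec1b, had 85.1 ± 6.77. These 4 were named after their values were seen.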
